A study of Danio rerio with 20 samples.

Results

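Swim exercise was compared with rest in the livers of male zebrafish aged 3 years, with 5 libraries from fish placed in a swim tunnel, where a water current makes them swim in place, and 5 from fish with no such treatment. The 10 libraries were taken by their labelled age and treatment from a series of 20, which also holds 5 resting and 5 swum libraries of fish aged 1 year. All 4 groups share the strain AB JxTu and the male sex, and the labels give neither the length or speed of swimming nor the time between the last swim and dissection. The labels do not say whether each library came from a separate fish, so p-values here reflect no more than the variation among these samples, and that variation could be technical. Libraries were prepared from RNA with the TruSeq kit of the second version, which does not mark strand, and reads of overlapping or antisense genes cannot be told apart. The labels give no replicate numbers, and those used here follow the order of the samples within each group. Total counts were 34398915 to 47150197 per resting library and 33067760 to 41297161 per exercised library. Gene levels are given as CPM, read counts scaled to a common library size, after TMM (trimmed mean of M values, a correction for libraries of unequal makeup).

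The liver stores and releases fuel for swimming muscle: it breaks down glycogen, makes glucose from amino acids and lactate, burns fatty acids in mitochondria and peroxisomes and turns part of them into ketone bodies. Transcription factors such as PPARα, FOXO1 and the coactivator PGC-1α tie these pathways to fasting and exertion, and the circadian clock gates many of them. A liver secretes much of the protein it makes, which takes ribosomes and the folding machinery of the endoplasmic reticulum, while the proteasome breaks proteins down.

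The liver label was checked against marker genes. The hepatocyte fatty acid binding protein gene fabp10a was at 6131 to 29408 CPM in the 10 libraries, and the egg yolk precursor gene vtg1, which female livers make in quantity, was at or under 0.484 CPM before TMM in these males. Transcripts of other organs were also present. FABP2, whose product binds fatty acids in gut epithelium, was above 100 CPM before TMM in resting replicate 3 (504 CPM) and in exercised replicates 1, 2 and 5 (2713, 878 and 2449 CPM), and at or under 3.06 CPM in the other 6. These 4 are called the intestinal libraries. The summed level of 37 intestine markers was 1318 to 10307 CPM in the resting and 476 to 44050.5 CPM in the exercised libraries, and that of 31 markers of the exocrine pancreas was 2646 to 119664 CPM and 441 to 72382 CPM. The log2 fold change, exercised minus resting, was above 0 for 35 of the 37 intestine markers, with a median of 2.61. It was below 0 for all 31 pancreas markers, with a median of -0.70. No gene of either list had an unadjusted p under 0.05, with levels that varied widely within each group. The first principal component of the 10 libraries carried 49.3% of the variance and set the 4 intestinal libraries (57.0 to 136.7) apart from the other 6 (-99.2 to -16.3). With 3 of the 4 in the exercised group, list counts below are also given without them, which leaves 4 resting and 2 exercised libraries of 3 years, and with the mean levels of the intestine and pancreas lists as 2 covariates. The 2 exercised libraries that then remain, replicates 3 and 4, had the least pancreas RNA of all 10 (a mean log2 CPM of -1.16 and 2.34 over the pancreas list, against 4.45 to 9.88 at rest). Values without the intestinal libraries therefore move with pancreas RNA as well: 21 of the 31 pancreas genes then had an unadjusted p under 0.05 with lower values, with a median log2 fold change of -7.36, and its part in those values was not tested. In whole liver, fewer cells of a type and less RNA per cell cannot be told apart.

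No gene passed an adjusted p of 0.05 in edgeR's quasi-likelihood test among 18079 tested (0% called), and the smallest adjusted p was 0.0609. DESeq2 on the same counts called 269 genes higher (1.59%) and 360 lower (2.12%) in exercised fish, of 16953 with an adjusted p. At an unadjusted p under 0.05 edgeR had 1332 genes higher in exercised fish (7.37%) and 1620 lower (8.96%), 2952 in all (16.3%), where 904 are expected by chance. In 241 genes (1.33%) every exercised library lay above every resting one, and in 259 (1.43%) every exercised library lay below. Without the intestinal libraries the shares at that p were 3.46% higher and 4.88% lower, and with both covariates 4% higher and 6.08% lower. Counts of list members at that p are to be read against the shares of all genes in the same fit. Since no gene passed, gene values below are given as measured differences, with the adjusted p from edgeR. The log2 fold change is exercised minus resting and is followed by its standard error. It was above 0 in 52.9% and below 0 in 47.1% of genes, with a median over all genes of 0.04. Scaling by library totals alone moved the log2 fold change of the median gene up by 0.36 and turned the split at an unadjusted p under 0.05 to 3152 higher and 327 lower, so list medians are to be read against the median of all genes under the same scaling, 0.04 with TMM and 0.39 with library totals alone.

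**Figure D1:**
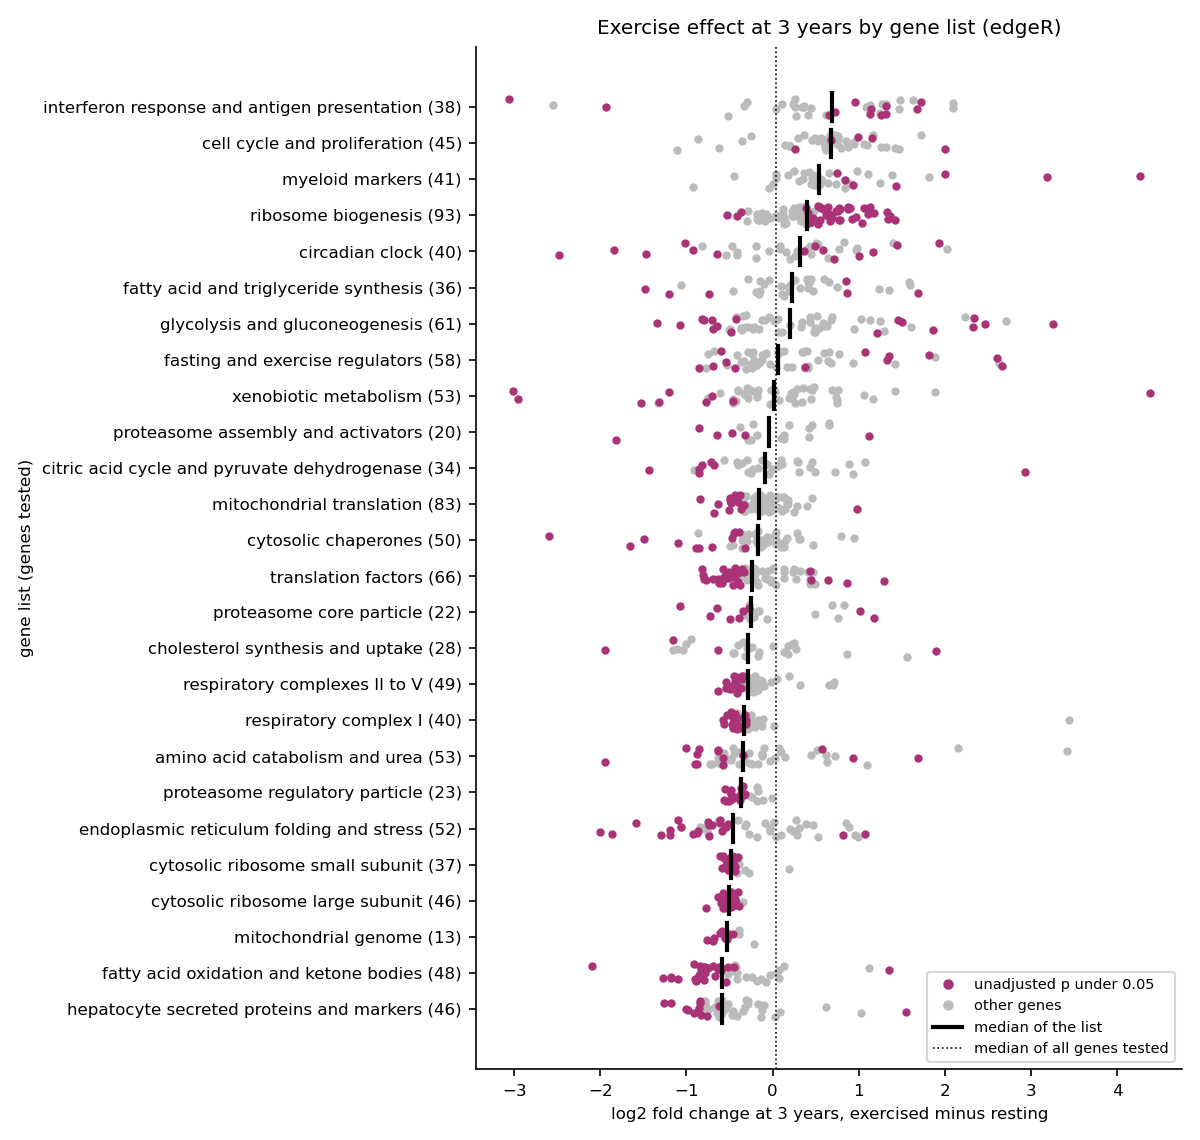
Log2 fold change (exercised minus resting, x axis) of each tested member of 26 gene lists (y axis, with the number tested); black bars mark list medians and the dotted line the median of all genes at 0.04. With TMM, hepatocyte markers, fatty acid oxidation, the mitochondrial genome, cytosolic ribosomal proteins, endoplasmic reticulum folding and the proteasome regulatory particle lie to the left. Interferon response, the cell cycle, myeloid markers and ribosome biogenesis lie to the right. With library totals alone the regulatory particle median is 0.02, still under the 0.39 of all genes.

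Regulators of fuel use stood on both sides, and those given first had higher values in exercised fish. PPARGC1A, which encodes the coactivator PGC-1α, was at 1.25, 3.51, 2.501, 0.386 and 3.04 CPM in resting replicates 1 to 5 and at 9.58, 18.1, 7.71, 20.1 and 10.1 CPM in exercised replicates 1 to 5. Its lowest exercised value was above its highest resting value. Its log2 fold change was 2.61 ± 0.77, with an adjusted p of 0.162. FOXO1 (ENSDARG00000099555), a transcription factor of the fasting response whose symbol is shared by another copy in these data, was at 23.8, 22.4, 26.6, 41.3 and 30.1 CPM at rest and at 114, 139, 69.2, 146 and 41.7 CPM after swimming. Exercised replicate 5 came within a narrow margin of resting replicate 4, but the groups did not overlap. Exercised and resting fish differed by 1.82 ± 0.53 on the log2 scale, with an adjusted p of 0.155. ZBTB16, a zinc finger repressor that glucocorticoids induce in mammals, was at 9.21, 9.498, 3.95, 1.51 and 3.24 CPM and 14.2, 5.98, 23, 41.4 and 89.7 CPM. Exercised replicate 5 was far above the rest and exercised replicate 2 lay within the resting range. This gave a log2 fold change of 2.67 ± 0.69 (adjusted p = 0.118). NAMPT (ENSDARG00000030598), the rate-limiting enzyme of NAD salvage, whose symbol is also shared, was at 6.902, 7.02, 8.48, 3.404 and 8.68 CPM and 12.8, 23.6, 10.6, 12.5 and 21.1 CPM. All exercised libraries exceeded all resting ones, and intestinal replicates 2 and 5 were the highest. The fold change was 1.22 ± 0.28 on the log2 scale, with an adjusted p of 0.0939.

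Among 58 tested regulators of fasting and exercise, 7 had an unadjusted p under 0.05 with higher (12.1%, against 7.37% of all genes) and 5 with lower values (8.62%, against 8.96%), and the list median was 0.06 (-0.083 to 0.15 without 1 library). With the intestinal libraries left out, the counts were 7 and 0, and with both covariates 6 and 5. The lower ones over all libraries included cpt1ab (-0.86 ± 0.21), given below with fatty acid oxidation. PPARA, the receptor that drives fatty acid oxidation genes, had a log2 fold change of 1.35 ± 0.63 (adjusted p = 0.297). FKBP5, a target of the glucocorticoid receptor, had one of -1.49 ± 0.53 (adjusted p = 0.206), opposite in sign to that of ZBTB16. KLF8, a Krüppel-like zinc finger factor, had the smallest p of all genes with higher values. It was at 5.02, 6.04, 5.52, 3.54 and 4.16 CPM at rest and at 14.8, 17.1, 13.02, 8.47 and 13.3 CPM after swimming. The groups did not overlap. On the log2 scale the change measured 1.46 ± 0.24 (adjusted p = 0.0609). MNT (ENSDARG00000101859), a repressor that competes with MYC for MAX, had group means of 5.72 ± 1.196 CPM and 12.4 ± 2.85 CPM (SD, n = 5 in each group, as for all means below) and a log2 fold change of 1.11 ± 0.26.

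Clock genes lay on both sides as well. NR1D1, which encodes the repressor REV-ERBα, was at 5.05, 9.71, 19.9, 22.9 and 9.15 CPM in resting and 1.14, 4.21, 4.83, 0.819 and 0.952 CPM in exercised fish. Each exercised value lay below the lowest resting value, exercised replicate 3 by a small margin. As a log2 fold change this was -2.48 ± 0.57, with an adjusted p of 0.0939. NFIL3, a repressor with a daily rhythm in vertebrate liver, was at 1.42, 4.38, 6.87, 3.26 and 3.81 CPM and 14.6, 10.4, 9.13, 8.26 and 11.6 CPM. Here every exercised value lay above the resting ones. Its log2 fold change was 1.45 ± 0.36 (adjusted p = 0.104). The cryptochrome gene cry3b was at 39.9, 37.9, 34.3, 35.4 and 58.7 CPM and 91.8, 55.5, 93.9, 75.3 and 97.6 CPM, with resting replicate 5 overlapping exercised replicate 2, and had a log2 fold change of 1.01 ± 0.22 (adjusted p = 0.0864). Of 40 clock genes tested, 8 had an unadjusted p under 0.05 with higher values (20.0%, against 7.37% of all genes). Another 6 had lower values at that p (15%, against 8.96%). The higher ones included the activator npas2 (1.93 ± 0.45) and the repressor CRY2 (0.58 ± 0.17). The lower ones included NR1D2, the partner of NR1D1 (-0.64 ± 0.21), dbpa, an output factor of the clock (-1.47 ± 0.36), and both copies of PER1, a core repressor (-0.93 ± 0.33 and -1.84 ± 0.58). After the intestinal libraries were left out, 7 clock genes had higher and 5 lower values at that p, and with both covariates 6 and 5. The hour of dissection is not given in the labels.

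**Figure D2:**
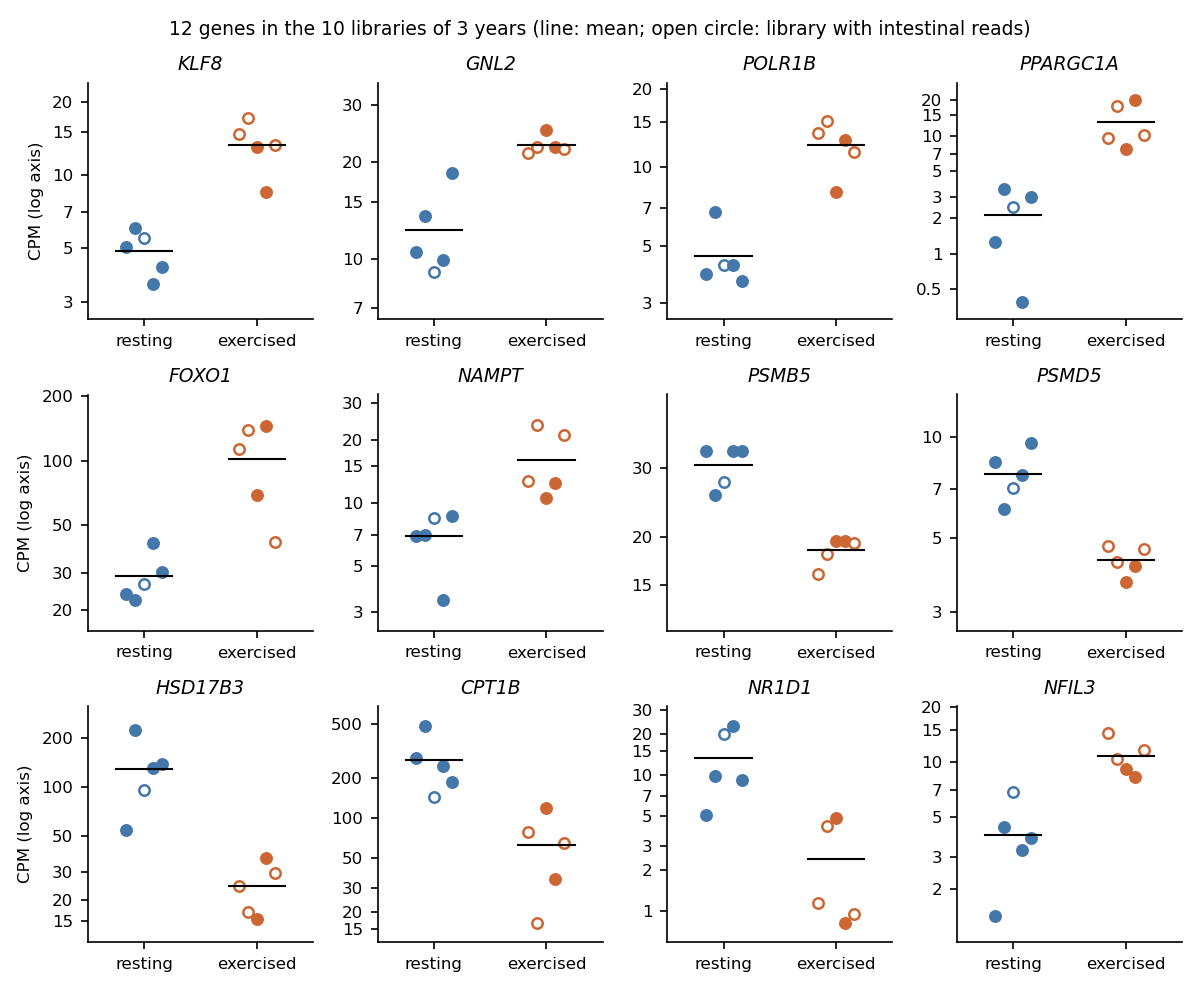
Level of 12 genes in CPM (y axes, log scale) in each of the 5 resting and 5 exercised libraries of 3 years; lines are means and open circles are the 4 intestinal libraries. The 12 were picked from the genes named for a small p or for groups without overlap. In each panel the groups do not overlap, which follows in part from this choice. Leaving out the open circles cannot change it.

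Genes of fatty acid oxidation had lower values in exercised fish under every scaling tried. Of 48 tested, 42 had a log2 fold change below 0, 26 an unadjusted p under 0.05 with lower values (54.2%, against 8.96% of all genes) and 1, the receptor gene PPARA, with higher values, and the median was -0.59 (-0.21 with library totals alone). CPT1B, a carnitine palmitoyltransferase that admits long-chain fatty acids to mitochondria, was at 282, 488, 143, 244 and 186 CPM at rest and at 78.05, 16.6, 119, 35.4 and 64.9 CPM after swimming. The ranges were apart, with resting replicate 3 and exercised replicate 3 closest. Exercised and resting fish differed by -2.10 ± 0.64 on the log2 scale (adjusted p = 0.177). A zebrafish copy of the liver form, cpt1ab, was at 95.8, 87.9, 73.6, 72.99 and 93.4 CPM and 41.5, 33.3, 72.7, 43.1 and 43.1 CPM. Exercised replicate 3 came just under the lowest resting value and the other 4 were far below. This gave a log2 fold change of -0.86 ± 0.21 (adjusted p = 0.108). HADH, an enzyme of the mitochondrial spiral, had a log2 fold change of -0.78 ± 0.20, and DECR1, which handles unsaturated chains, one of -1.09 ± 0.30. In 6 members the groups did not overlap, all of them lower in exercised fish (12.5%, against 1.43% of all genes). In the 6 libraries that are not intestinal, the median was again -0.59, and 14 members had an unadjusted p under 0.05 with lower values where 4.88% of all genes did. With both covariates 24 did.

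Genes of the respiratory chain also stood below the median gene. All 13 genes of the mitochondrial genome had a log2 fold change below 0, 10 of them with an unadjusted p under 0.05 (76.9%, against 8.96% of all genes), and the median was -0.52 (-0.12 with library totals alone and -0.92 without the intestinal libraries, where 10 again had that p). With the intestine covariate 4 of the 13 reached it, and with both covariates 0 did, at a median of -0.30. MT-ND1, a subunit of complex I, had 1811 ± 588 CPM at rest and 1125 ± 189 CPM after swimming, a log2 fold change of -0.69 ± 0.23 (adjusted p = 0.194). Of 40 nuclear genes of complex I, 38 were below 0 and 19 had an unadjusted p under 0.05 with lower values (47.5%), and the median was -0.33 with TMM and 0.07 with library totals alone. NDUFAB1, an acyl carrier protein in complex I, was lower in every exercised library (-0.57 ± 0.14, adjusted p = 0.113). Of 49 genes of complexes II to V, 13 reached that p with lower values (26.5%), and the median was -0.29 with TMM, 0.16 with library totals alone and -0.16 without resting replicate 4. With the intestinal libraries left out 13 genes of complex I and 26 of complexes II to V reached it, and with both covariates 6 and 5. Of 34 genes of the citric acid cycle and pyruvate entry, 6 reached it with lower (17.6%) and 1 with higher values (2.94%). The list median was -0.09 (0.31 with library totals alone and 0.054 without resting replicate 1). The counts were 4 lower and 2 higher without the intestinal libraries, and 5 and 1 with both covariates. IDH2, the NADP-dependent isocitrate dehydrogenase of mitochondria, was at 85.4, 117, 60.2, 94.8 and 87.7 CPM at rest and 57.2, 34.9, 60.1, 52.5 and 42.2 CPM after swimming. Resting replicate 3 and exercised replicate 3 were almost equal and the groups did not overlap. The fold change was -0.85 ± 0.20 on the log2 scale (adjusted p = 0.0939). FH, fumarate hydratase, had a log2 fold change of -0.85 ± 0.22, and MPC2 (ENSDARG00000024478), a subunit of the mitochondrial pyruvate carrier, one of -1.44 ± 0.41.

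Lipid synthesis and glycolysis showed no common direction. Of 36 genes of fatty acid and triglyceride synthesis, 3 had an unadjusted p under 0.05 with higher and 3 with lower values. These are 8.33% each, against 7.37% and 8.96% of all genes. The median of 0.23 went to -0.06 without the intestinal libraries, where none had that p. With both covariates the median was 0.18. Then 5 had higher and 3 lower values at that p, where 4% and 6.08% of all genes did. SREBF1, the transcription factor of lipogenesis, had a log2 fold change of 0.86 ± 0.38 (adjusted p = 0.273), and the lipogenic regulator thrsp one of 1.68 ± 0.69. ME1, the cytosolic malic enzyme that supplies NADPH, had one of -1.48 ± 0.47 (adjusted p = 0.185). Of 28 genes of cholesterol synthesis and uptake, 1 had higher (3.57%) and 3 had lower values (10.7%) at that p. The list median was -0.29 (0.04 with library totals alone). Leaving out the intestinal libraries gave 1 higher and 1 lower, and both covariates gave 0 and 3. The higher one with no covariates was insig1, a sterol sensor that holds back cholesterol synthesis. It was at 2.11, 17.8, 12.9, 14.1 and 5.07 CPM at rest and at 37.8, 23.9, 30.3, 43.2 and 58.5 CPM after swimming, with all exercised values above the resting ones (1.90 ± 0.66, adjusted p = 0.199). ACAT2, which makes acetoacetyl-CoA in the cytosol, had a log2 fold change of -1.95 ± 0.56. Of 61 genes of glycolysis and gluconeogenesis, 8 reached that p with higher (13.1%) and 9 with lower values (14.8%), and the median of 0.20 went to -0.03 without the intestinal libraries, where 6 had higher and 4 lower values. With both covariates the counts were 8 and 4. PFKFB3, which makes the activator of phosphofructokinase, had a log2 fold change of 2.33 ± 0.76, and GAPDH, the glyceraldehyde phosphate dehydrogenase, one of -0.70 ± 0.22 (adjusted p = 0.191 and 0.185). PYGM (ENSDARG00000055518), a glycogen phosphorylase known from muscle in mammals, had one of 1.87 ± 0.50 at 0.912 ± 0.31 CPM and 3.34 ± 2.23 CPM. PYGM is itself on the list of 50 skeletal muscle markers. Of the 50, 47 had a log2 fold change above 0, with a median of 1.36 (1.42 without the intestinal libraries). At that p 2 had higher values, PYGM among them (4%, against 7.37% of all genes), and 1 had lower values (2%, against 8.96%). The mean log2 CPM of the 50 markers was -1.31 to 1.44 at rest and -0.70 to 2.14 after swimming. Their summed level, which the abundant genes carry, was 1513 to 2889 CPM and 1391 to 2239 CPM. The part of muscle RNA in the PYGM value was not tested.

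**Figure D3:**
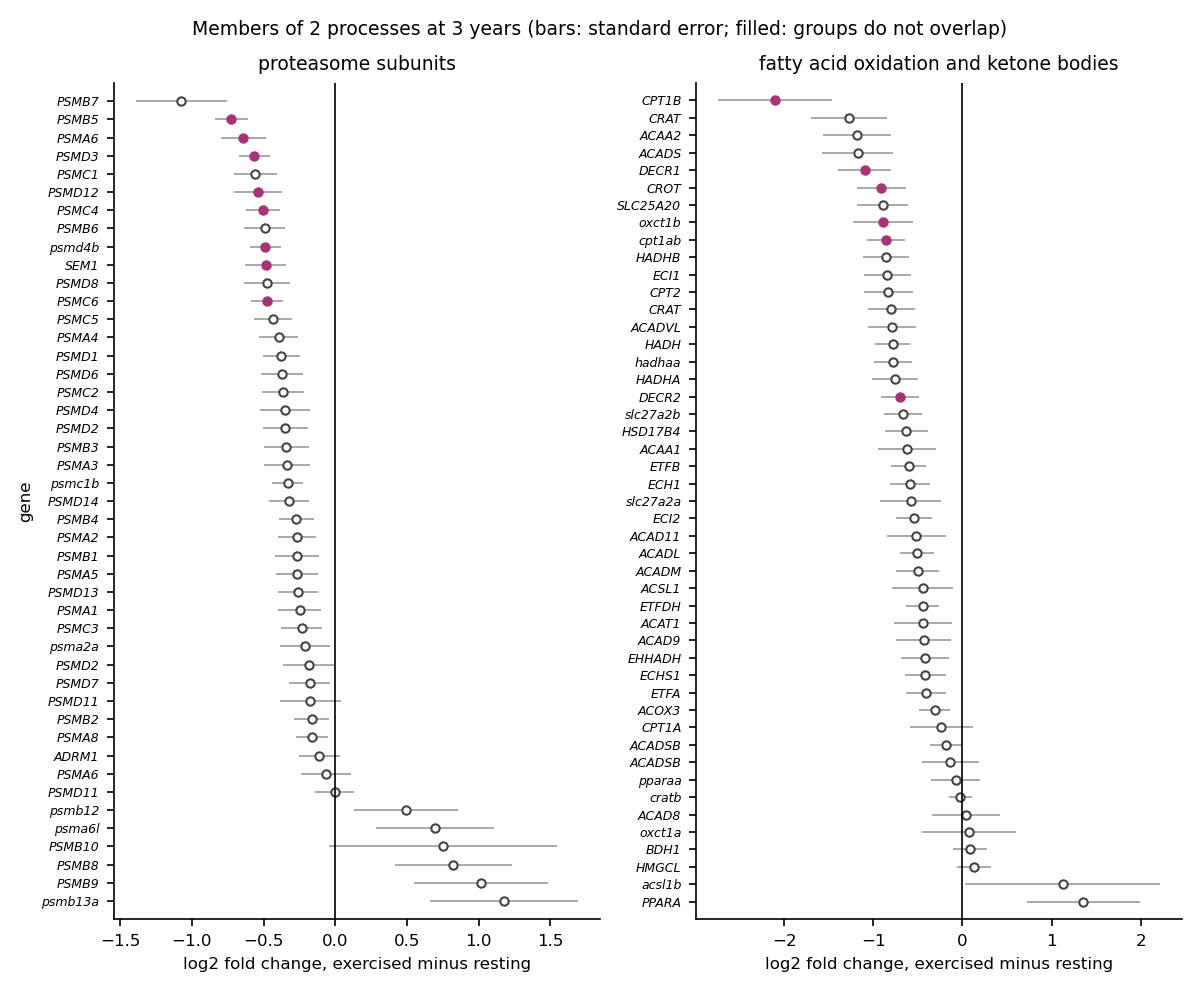
Log2 fold change (x axes, exercised minus resting, with standard error) of the tested genes, all but 1, of the proteasome core and regulatory particles and of fatty acid oxidation and ketone bodies (y axes), with filled circles where the 5 exercised and 5 resting libraries do not overlap. Most members of both sets lie left of 0 with TMM; with library totals alone the medians are 0.15 for the core, 0.02 for the regulatory particle and -0.21 for fatty acid oxidation.

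Ribosomal protein genes and the genes that build ribosomes differed in opposite directions. Of 83 cytosolic ribosomal protein genes tested, 82 had a log2 fold change below 0 and 77 an unadjusted p under 0.05 with lower values, where 8.96% of all genes did. The median was -0.51 for the large and -0.48 for the small subunit (-0.12 and -0.10 with library totals alone, -0.33 and -0.31 without resting replicate 4). With both covariates the medians were -0.30 and -0.31, and 10 genes of the large and 3 of the small subunit had that p. Groups did not overlap in 1 of the 83, a share no larger than the 1.43% of all genes, and this was RPL12. It was at 1172, 1479, 965, 2629.7 and 1199 CPM at rest and at 918, 769, 929.7, 955 and 787 CPM after swimming. Resting replicate 4 was the highest and the exercised libraries lay close together. On the log2 scale the change measured -0.77 ± 0.22 (adjusted p = 0.148). RPL23 and RPS13 had log2 fold changes of -0.57 ± 0.18 and -0.54 ± 0.18. With the intestinal libraries left out, the medians were -0.42 for both subunits, and 3 of the 83 genes had an unadjusted p under 0.05, a share no larger than the 4.88% of all genes. In 1-year fish, which share no library with those of 3 years, the median over the 83 genes was -0.02. In edgeR's test the difference of effects between the ages passed an adjusted p of 0.05 for 0 of the 83. Of all genes 0.979% passed, so a count of 0 in a list of this size says little about age.

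Of 93 ribosome biogenesis genes, 77 had a log2 fold change above 0, 41 an unadjusted p under 0.05 with higher values (44.1%, against 7.37% of all genes) and 3 with lower values. The median was 0.40 (0.80 with library totals alone). GNL2, a nucleolar GTPase needed for the large subunit, was at 10.5, 13.6, 9.05, 9.86 and 18.4 CPM and 21.4, 22.3, 25.1, 22.2 and 21.95 CPM. The exercised libraries lay within a narrow range above all resting ones. As a log2 fold change this was 0.88 ± 0.18 (adjusted p = 0.0824). POLR1B, the second-largest subunit of RNA polymerase I, was at 3.897, 6.73, 4.22, 4.21 and 3.64 CPM and 13.6, 15.1, 8.06, 12.7 and 11.4 CPM. All exercised values were above the resting ones, and exercised replicate 3 was the lowest of them. Its log2 fold change was 1.42 ± 0.30 (adjusted p = 0.0824). WDR75 and tsr1, factors of small subunit assembly, had log2 fold changes of 1.33 ± 0.31 and 1.13 ± 0.28. The 3 lower ones were PNO1 (-0.53 ± 0.21), RSL24D1 (-0.41 ± 0.18) and npm1b (-0.37 ± 0.17), also assembly factors. In 8 members the groups did not overlap, all higher in exercised fish (8.6%, against 1.33% of all genes). After the intestinal libraries were left out, the median was 0.19 and 4 members had higher values at that p, where 3.46% of all genes did. With both covariates 34 did, where 4% of all genes did. At 1 year the median of these genes was 0.39.

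Translation factors were split, with more of them lower. Of 66 tested, 25 had an unadjusted p under 0.05 with lower values (37.9%, against 8.96% of all genes). Another 5 had higher values at that p (7.58%, against 7.37%). The list median was -0.24 (0.14 with library totals alone and -0.12 without resting replicate 4). With the intestinal libraries left out 11 had lower and 1 higher values, and with both covariates 12 and 4. EIF3B (ENSDARG00000059654), a scaffold of initiation factor 3, had a log2 fold change of -0.64 ± 0.18, and EIF2S2, the beta subunit of initiation factor 2, one of -0.62 ± 0.18. EIF6, which keeps free large subunits apart from small ones and also acts in their assembly, was at 9.54 ± 2.301 CPM and 17.4 ± 4.35 CPM (0.86 ± 0.24, adjusted p = 0.144). DPH2, which makes the diphthamide residue of elongation factor 2, was higher in every exercised library (0.80 ± 0.17, adjusted p = 0.0864). In mitochondrial translation, 16 of 83 genes had lower (19.3%) and 1 had higher values (1.2%) at that p. The list median was -0.16 (0.24 with library totals alone, -0.055 without resting replicate 4 and -0.24 without resting replicate 3). Outside the intestinal libraries 13 had lower and 1 higher values, and with both covariates 8 and 3. The higher one was GFM2, which recycles mitochondrial ribosomes, at 7.001, 7.598, 5.54, 5.51 and 5.27 CPM and 12.8, 6.56, 13.7, 13.6 and 14.1 CPM. Exercised replicate 2 lay within the resting range and the other 4 were well above it. Exercised and resting fish differed by 0.98 ± 0.19 on the log2 scale (adjusted p = 0.0824).

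**Figure D4:**
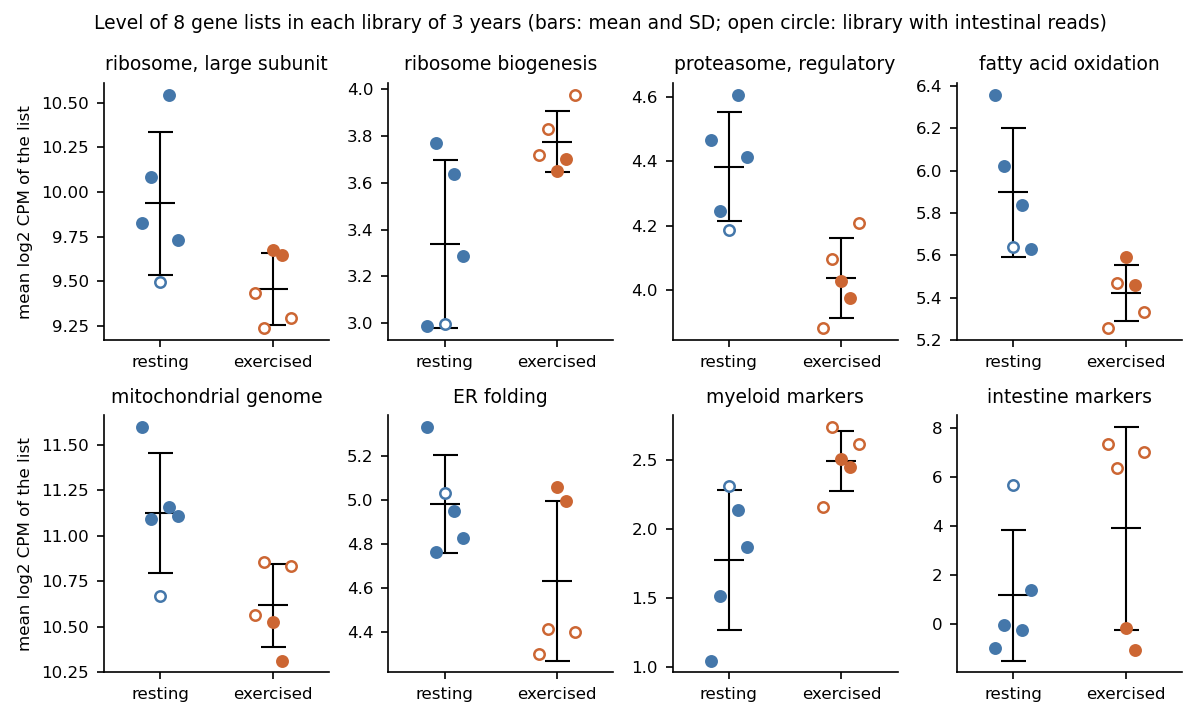
Mean log2 CPM of the members of 8 gene lists (y axes) in each library of 3 years, with mean and SD bars (n = 5) and open circles for the 4 intestinal libraries. In this measure, after TMM, fatty acid oxidation is lower in every exercised library than in any resting one. The margin is small (at most 5.59 against at least 5.63), and the summed CPM of the list overlaps (3442 to 5439 exercised, 4899 to 9328 resting). Intestine markers split each group, and endoplasmic reticulum folding separates the 3 exercised intestinal libraries from the other 2.

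Most subunits of the proteasome core and regulatory particle had lower values in exercised fish, though with library totals alone the medians of both were above 0 (0.15 and 0.02), while assembly factors and activators showed no common direction. PSMB5, the chymotrypsin-like catalytic subunit, had the smallest p of all genes. It was at 33.1, 25.6, 27.7, 33.1 and 33.1 CPM at rest and at 16.02, 18.1, 19.5, 19.5 and 19.3 CPM after swimming. The lowest resting value was well above the highest exercised value. This gave a log2 fold change of -0.73 ± 0.12 (adjusted p = 0.0609). PSMD5, a chaperone that assembles the base of the regulatory particle, was at 8.42, 6.12, 7.06, 7.72 and 9.599 CPM and 4.75, 4.24, 3.697, 4.12 and 4.63 CPM. These groups did not overlap either. The fold change was -0.86 ± 0.15 on the log2 scale (adjusted p = 0.0721). PSMD3, a subunit of the regulatory lid, was at 39.4, 28.9, 29.6, 41.02 and 34.02 CPM and 21.9, 23.2, 23.9, 23.99 and 23.96 CPM, with exercised libraries close together and below all resting ones (-0.56 ± 0.11, adjusted p = 0.0824).

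All 23 genes of the regulatory particle had a log2 fold change below 0 and 15 had an unadjusted p under 0.05 (65.2%, against 8.96% of all genes), with a median of -0.37 with TMM and 0.02 with library totals alone. In 6 of them the groups did not overlap (26.1%, against 1.43% of all genes), among them the ATPase subunits PSMC4 (-0.51 ± 0.12) and PSMC6 (-0.48 ± 0.11) and the ubiquitin receptor psmd4b (-0.49 ± 0.11). Of 22 core particle genes, 7 had lower (31.8%) and 2 higher values (9.09%) at that p. The list median was -0.26 (0.15 with library totals alone and -0.099 without resting replicate 4). The 6 core genes above 0 were PSMB8 (0.82 ± 0.41), PSMB9 (1.02 ± 0.47) and PSMB10 (0.75 ± 0.80), the catalytic subunits that interferon induces, with psmb12 (0.49 ± 0.36), psmb13a (1.18 ± 0.51) and psma6l (0.69 ± 0.41). PSMB10 and psmb12 were named after their values had been seen. Each of the 6 was above all resting libraries in exercised replicates 1, 2 and 5, which are intestinal, and at or below the resting maximum in replicates 3 and 4. Their adjusted p values were 0.269 or more, and the part of the intestinal reads was not tested. Of 20 assembly factors and activators, 5 had lower (25.0%) and 1 had higher values (5.0%) at that p, and 10 of the 20 were above 0. The list median was -0.04 (0.33 with library totals alone, -0.23 to 0.12 without 1 library). The lower ones included the deubiquitinases UCHL5 (-0.65 ± 0.18) and USP14 (-0.47 ± 0.14), and the higher one was NFE2L1 (1.12 ± 0.50), the transcription factor that drives proteasome genes in mammals. In the 6 libraries that are not intestinal, 10 core, 13 regulatory and 4 assembly genes had an unadjusted p under 0.05 with lower values, and with both covariates 10, 15 and 4. At 1 year the median over the 65 genes of the 3 lists was -0.07. In edgeR's test the difference of effects between the ages passed for 1 core, 0 regulatory and 1 assembly gene, where 0.979% of all genes passed.

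Of 50 cytosolic chaperone genes, 12 had an unadjusted p under 0.05 with lower (24.0%, against 8.96% of all genes) and 0 with higher values, with a median of -0.17 (0.22 with library totals alone, -0.076 without resting replicate 4 and -0.098 without resting replicate 2). The count was 4 without the intestinal libraries, where 4.88% of all genes had lower values, and 5 with both covariates. BAG3, a partner of HSP70 that steers proteins to autophagy, was at 21.8, 21.7, 24.8, 20.8 and 33.4 CPM at rest and at 7.06, 8.72, 8.47, 10.5 and 4.08 CPM after swimming. Every resting value was more than any exercised one, and exercised replicate 5 was the lowest. On the log2 scale the change measured -1.66 ± 0.35 (adjusted p = 0.0824). HSF2, a heat shock factor, had a log2 fold change of -1.10 ± 0.27 (adjusted p = 0.104). PIK3R4, a subunit of the autophagy kinase complex with VPS34, had one of -0.88 ± 0.22 (adjusted p = 0.104). It is on the list of autophagy and lysosome genes, which showed no common direction. Of 72 tested, 6 had higher values at that p (8.33%, against 7.37% of all genes). Another 5 had lower values (6.94%, against 8.96%). The list median was -0.06 (0.28 with library totals alone). The counts were 3 higher and 1 lower without the intestinal libraries, and 3 and 5 with both covariates.

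Several genes of the secretory pathway had lower values in the exercised fish. OSTC, SEC11A and ALG9 were named for their p and are not on the list of endoplasmic reticulum folding and stress. OSTC, a subunit of the oligosaccharyltransferase, was at 60.1, 34.2, 37.9, 44.5 and 36.2 CPM at rest and at 15.6, 20.6, 25.1, 25.4 and 21.8 CPM after swimming. The groups did not overlap. As a log2 fold change this was -0.97 ± 0.18 (adjusted p = 0.0721). SEC11A, the catalytic subunit of signal peptidase, was at 40.95, 27.6, 32.6, 35.5 and 32.5 CPM and 13.2, 15.7, 20.1, 21.8 and 14.1 CPM, again with no overlap (-0.99 ± 0.20, adjusted p = 0.0824). ALG9, a mannosyltransferase of the N-glycan precursor, was at 8.47 ± 1.46 CPM and 4.97 ± 0.694 CPM (-0.77 ± 0.15, adjusted p = 0.0824). Of 52 genes of endoplasmic reticulum folding and stress, 20 had an unadjusted p under 0.05 with lower values (38.5%, against 8.96% of all genes). Another 2 had higher values at that p (3.85%, against 7.37%). The list median was -0.46 (-0.13 with library totals alone and -0.24 without resting replicate 1). Without the intestinal libraries the median was -0.15, with 2 genes lower and 6 higher, and with both covariates 20 were lower and 1 higher. SSR3, a subunit of the translocon-associated complex, had a log2 fold change of -0.92 ± 0.23, SDF2L1, a cofactor of the chaperone BiP, one of -1.86 ± 0.47, and the disulfide isomerase PDIA4 one of -2.0 ± 0.62 (adjusted p = 0.114, 0.108 and 0.179). The 2 higher ones were the stress factors DDIT3 (0.82 ± 0.25) and sesn2 (1.08 ± 0.43). HSPA5, which encodes BiP itself, was at 111, 89.97, 88.1, 91.8 and 90.8 CPM at rest and at 65.4, 77.2, 271, 213 and 52.1 CPM after swimming. Exercised replicates 3 and 4, which are not intestinal libraries, were above the resting range, and replicates 1, 2 and 5 were below it. Its log2 fold change was 0.52 ± 0.53 (adjusted p = 0.606) and 1.32 without the intestinal libraries.

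Genes of hepatocyte function had mostly lower values. Of 46 hepatocyte markers, 41 had a log2 fold change below 0, and the median was -0.59 (-0.27 with library totals alone). An unadjusted p under 0.05 was found for 11 with lower values (23.9%, against 8.96% of all genes). It was found for 1 with higher values (2.17%, against 7.37%). With the intestinal libraries left out, the median was -0.10 and 2 genes had lower and 2 higher values at that p, and with both covariates 9 and 0. The summed level of the list was 214332 to 452639 CPM at rest, and the 3 exercised intestinal libraries (134865 to 180815 CPM) lay below the other 2 (323299 and 327855 CPM). The apolipoprotein gene apoa2 had a log2 fold change of -1.18 ± 0.40 (adjusted p = 0.197). In sterol metabolism, HSD17B3, a hydroxysteroid dehydrogenase known in mammals from the testis, was at 54.3, 225, 95.7, 130.3 and 138 CPM and 24.6, 17.03, 15.5, 36.4 and 29.5 CPM. The lowest resting value, in replicate 1, was above the highest exercised value, in replicate 4. This gave a log2 fold change of -2.39 ± 0.43 (adjusted p = 0.0721). The gene cyp27a1.1, of the family of the sterol 27-hydroxylase of bile acid synthesis, was at 152, 151, 82.2, 114 and 77.1 CPM and 33.04, 46.3, 50.6, 72.3 and 34.9 CPM, with no overlap (-1.28 ± 0.24, adjusted p = 0.0824).

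Of 53 genes of xenobiotic metabolism, 8 had an unadjusted p under 0.05 with lower values (15.1%, against 8.96% of all genes). Higher values at that p were found for 1 (1.89%, against 7.37%). The list median was 0.01 (-0.18 to 0.076 without 1 library). Leaving out the intestinal libraries gave 5 lower and 4 higher, where 4.88% and 3.46% of all genes were. Both covariates gave 9 and 1, where 6.08% and 4% of all genes were. The 4 with the smallest p were all cytochrome P450 genes of family 2: cyp2k31 (-2.96 ± 0.68), cyp2ad2 (-1.53 ± 0.37), cyp2k22 (-1.32 ± 0.32) and cyp2k6 (-1.20 ± 0.31), with adjusted p of 0.0939, 0.104, 0.104 and 0.116. Members of 1 subfamily, such as the cyp2k genes, can be close copies of each other, and their values are uncertain where reads are shared. Of 53 genes of amino acid breakdown and urea formation, 11 had lower (20.8%) and 3 higher values (5.66%) at that p. The list median was -0.34 (0.04 with library totals alone). Outside the intestinal libraries 4 had lower and 2 higher values, and with both covariates 4 and 5. AHCY, which clears S-adenosylhomocysteine, had a log2 fold change of -0.90 ± 0.29, and AMT, of the glycine cleavage system, one of -0.63 ± 0.19. The cystathionine synthase gene cbsb was higher in every exercised library (0.93 ± 0.34, adjusted p = 0.218).

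Myeloid, interferon and cell cycle lists had medians above that of all genes. The list of complement and acute phase genes, which hepatocytes make, did not, with 20 of 29 genes below 0 and a median of -0.16 (0.49 without the intestinal libraries, with 7 higher at that p, and -0.25 with both covariates), and the lymphocyte list had a median of 0.49 that turned to -0.24 without the intestinal libraries. Of 41 myeloid markers, 38 had a log2 fold change above 0 and 7 an unadjusted p under 0.05 with higher (17.1%, against 7.37% of all genes) and 0 with lower values, and the median was 0.54 (0.67 without the intestinal libraries, with 11 higher, and 0.18 with both covariates, with 6 higher). Their summed level was 470 to 889 CPM at rest and 740 to 1228 CPM after swimming. MFAP4 (ENSDARG00000089667), 1 of several zebrafish copies expressed in macrophages, was at 0, 0.185, 0.245, 0.316 and 0.396 CPM at rest and at 0.401, 7.19, 1.93, 4.78 and 8.01 CPM after swimming. Exercised replicate 1 was only just above the highest resting value. The fold change was 4.26 ± 0.85 on the log2 scale (adjusted p = 0.0824), and reads can be shared among the copies. The progranulin gene grna and cyba, a subunit of the phagocyte NADPH oxidase, were higher in every exercised library (0.84 ± 0.28 and 0.94 ± 0.33, adjusted p = 0.193 and 0.206). Of 38 genes of interferon response and antigen presentation, 10 had higher (26.3%) and 2 lower values at that p, with a median of 0.69 (0.28 without the intestinal libraries, with 4 higher, and 0.19 with both covariates, with 2 higher). TAP1, a peptide transporter for antigen presentation, had a log2 fold change of 1.13 ± 0.31 (adjusted p = 0.136). Of 45 cell cycle genes, 5 had higher (11.1%, against 7.37% of all genes) and 0 lower values at that p, with a median of 0.67 (0.24 without the intestinal libraries, with 3 higher and 4 lower, 0.092 with both covariates, with 2 higher, and 0.41 without exercised replicate 2). The proliferation marker mki67 was at 0.528, 1.29, 2.35, 3.16 and 2.45 CPM at rest and at 9.24, 6.67, 5.28, 8.93 and 9.06 CPM after swimming. Its exercised values were all above the resting ones (2.0 ± 0.67, adjusted p = 0.197). The B cell gene cd79a, on the lymphocyte list, was near the limit of detection, at 0.104 ± 0.0591 CPM and 0.507 ± 0.192 CPM (2.24 ± 0.77, adjusted p = 0.198). Of 30 lymphocyte genes tested, 23 had a log2 fold change above 0 and 7 below. Higher values at that p were found for 2 (6.67%, against 7.37% of all genes) and lower values for 0. Without the intestinal libraries the counts were 3 higher and 0 lower. With both covariates they were 0 and 4, at a median of -0.39.

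Other genes with a small p belong to none of these lists. The gene ppdpfb was at 1152, 568, 727, 518 and 805 CPM at rest and at 228, 126, 203, 318 and 94.03 CPM after swimming. Its groups lay far apart. On the log2 scale the change measured -1.96 ± 0.38 (adjusted p = 0.0824). The gene rims2b, of the RIM family that organises vesicle release, was at 23.7, 8.18, 13.9, 6.14 and 21.6 CPM and 2.23, 6.08, 2.34, 2.61 and 2.296 CPM. Resting replicate 4 and exercised replicate 2 came closest, without overlap (-2.24 ± 0.46, adjusted p = 0.0824). The immunoglobulin superfamily gene igsf8 had means of 7.78 ± 2.45 CPM and 2.35 ± 0.821 CPM (-1.72 ± 0.35), and thap4 had 11.6 ± 2.45 CPM and 5.38 ± 1.45 CPM (-1.10 ± 0.20). The value of phf20l1, which encodes a reader of methylated lysine, rested on exercised replicates 3 and 4. It was at 19.6, 14.9, 14.8, 69.1 and 13.2 CPM at rest and at 37.9, 33.9, 696, 1943 and 68.5 CPM after swimming. Exercised replicates 1, 2 and 5 fell within the resting range (4.40 ± 1.02, adjusted p = 0.0939). The G protein gene gna11a (0.97 ± 0.21), pho (0.94 ± 0.21), the phosphodiesterase gene GPCPD1 (1.37 ± 0.34) and AIF1L (1.38 ± 0.53) were higher in every exercised library. The neutral cholesterol ester hydrolase gene NCEH1 (ENSDARG00000020427; -2.54 ± 0.80), the claudin gene CLDN11 (ENSDARG00000020031; -2.12 ± 0.58), the small GTPase gene arl4ab (-2.0 ± 0.55) and the methyltransferase-like gene mettl25 (-1.91 ± 0.46) were lower in every exercised library. Symbols of NCEH1 and CLDN11 are shared by other copies. Of the 36 genes named, here and above, for their p or for a large fold without overlap over the whole table, 35 passed an adjusted p of 0.05 in DESeq2, the exception being AIF1L. The sign of all 36 was kept without the intestinal libraries. The 36 were chosen from these same libraries, and most had groups without overlap. For such genes, leaving out libraries could hardly turn the sign.

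The exercise effect at 3 years was compared with that at 1 year, where 5 exercised and 5 resting libraries of the other age were used and no library is shared. This difference of effects passed an adjusted p of 0.05 in edgeR's test for 177 genes (0.979%). In 93 of them (0.514%) the fold change was above 0 at 3 years and below 0 at 1 year, and in 76 (0.42%) the reverse. Without the intestinal libraries of both ages, which leaves 13 of 20, 20 genes passed, 10 of them among the 177, and DESeq2 called 680, with all 177 among them. Leaving out 1 library of 3 years gave 95 to 191 genes, with counts of 105, 110 and 97 without exercised replicates 1, 2 and 5 and of 111, 112 and 95 without resting replicates 1, 2 and 5.

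Of the genes named here, some of them for this difference, 17 had a difference of effects that passed, and the sign of each was kept without the intestinal libraries, where 2 (phf20l1 and EIF2AK3) passed. PSMB5 had a log2 fold change of -0.73 ± 0.12 at 3 years and 0.05 ± 0.12 at 1 year, a difference of -0.78 ± 0.16 (adjusted p = 0.0309). For PSMD5 the effects were -0.86 ± 0.15 and 0.45 ± 0.15, a difference of -1.31 ± 0.22 (adjusted p = 0.00864). HSD17B3 was at 29.8, 27.8, 31.7, 48.7 and 46.01 CPM in resting and 32.3, 141, 118, 35.4 and 107 CPM in exercised fish of 1 year. Exercised replicates 2, 3 and 5 of 1 year were above the resting range there, opposite to the direction at 3 years. Its effect of 1.23 ± 0.42 at 1 year gave a difference of -3.62 ± 0.60 (adjusted p = 0.00864). The difference was -3.85 ± 0.64 for rims2b, -1.79 ± 0.34 for cyp27a1.1, -2.65 ± 0.52 for ppdpfb and -1.24 ± 0.28 for thap4. In each the exercise effect was further below 0 at 3 years, but mean resting levels were higher there than at 1 year. They were 14.7 and 5.15 CPM for rims2b, 115 and 67.3 CPM for cyp27a1.1, 754 and 187 CPM for ppdpfb and 11.6 and 8.57 CPM for thap4. The part of these resting levels in the differences was not tested. ME1 had effects of -1.48 ± 0.47 at 3 years and 1.63 ± 0.48 at 1 year, a difference of -3.10 ± 0.67 (adjusted p = 0.0336).

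In the other direction stood NFIL3, with 1.45 ± 0.36 at 3 years and -0.89 ± 0.36 at 1 year (difference 2.33 ± 0.50, adjusted p = 0.0336), and NAMPT (ENSDARG00000030598), with 1.22 ± 0.28 and -0.80 ± 0.28 (difference 2.02 ± 0.39, adjusted p = 0.021). MARS1, the methionine tRNA synthetase, had a difference of 1.74 ± 0.40 (adjusted p = 0.0449). Among the 52 genes of endoplasmic reticulum folding and stress 5 differences passed, where 0.979% of all genes did. All 5 were of genes that fell at 1 year in edgeR's test and had adjusted p of 0.361 or more at 3 years. HSPA5 had an effect of -3.14 ± 0.58 at 1 year (adjusted p = 0.00713) and a difference of 3.66 ± 0.77 (adjusted p = 0.0309). At 1 year it was at 1533, 891, 285, 283 and 187 CPM at rest and at 65.8, 115, 71.9, 43.1 and 64.8 CPM after swimming, so the resting fish of 1 year stood above all resting fish of 3 years. EIF2AK3, the stress sensor PERK, had -1.94 ± 0.27 at 1 year and a difference of 2.4 ± 0.37 (adjusted p = 0.00751). The cochaperone genes dnajc3b and DNAJB9 (ENSDARG00000016886) and the folding factor CRELD2 had differences of 2.29 ± 0.44, 4.27 ± 1.01 and 3.05 ± 0.69.

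**Figure D5:**
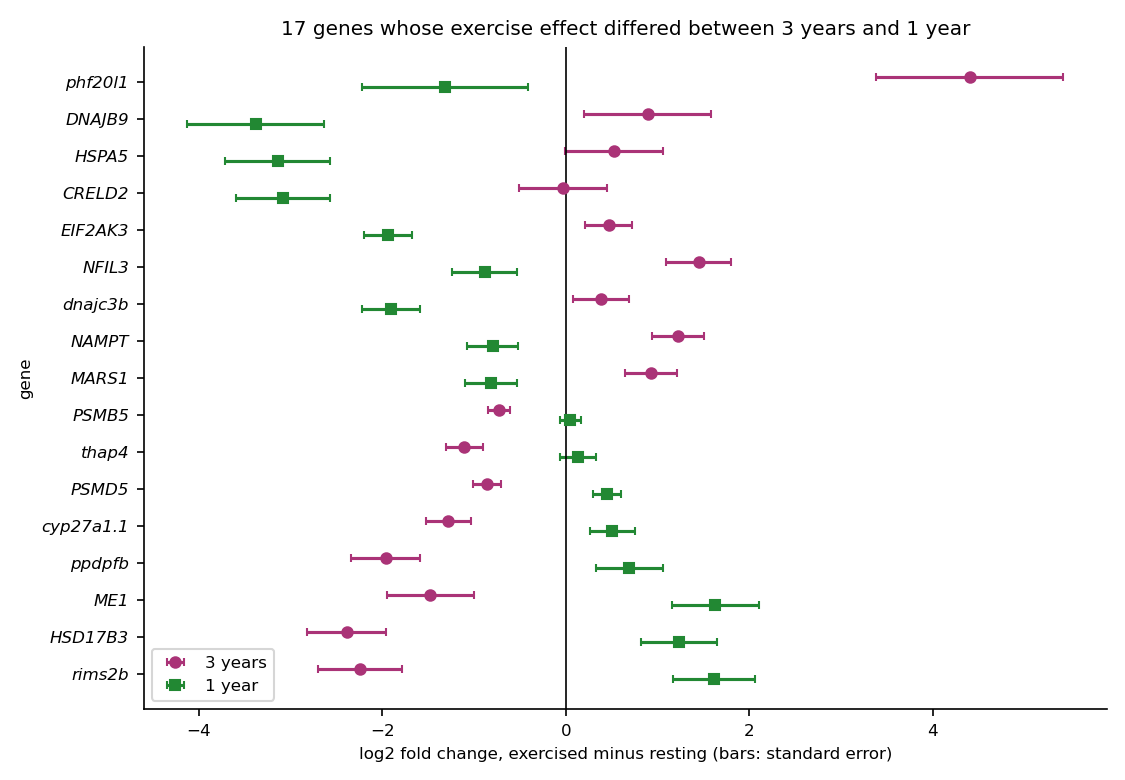
Log2 fold change of exercised against resting fish (x axis, with standard error) at 3 years and at 1 year for the 17 named genes or list members (y axis) whose difference of effects passed an adjusted p of 0.05 in edgeR. Genes at the top, from phf20l1 to MARS1, lie further right at 3 years than at 1 year, and those at the bottom, from PSMB5 to rims2b, further left.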

How the data were processed

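Liver RNA of 20 libraries was sequenced, and the 10 of 3-year fish are described. Per the submitters' processing notes, reads were demultiplexed with bcl2fastq 1.8.4, aligned with STAR 2.4.1d to GRCz10 and counted with featureCounts 1.4.6-p4. The authors deposited whole read counts per gene, which were tested here as deposited, and RPKM values. In 1399 well counted genes the deposited RPKM values could be rebuilt from the counts only with library totals that ran on from gene to gene instead of following the libraries, so RPKM, with a pseudocount of 0.1 before log2, was used only as an alternative. Of 32105 genes, 26269 (81.82%) matched a symbol, and 4301 share theirs with another gene. Values of such copies are uncertain where they share reads.

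Genes with enough counts in the 20 libraries (edgeR's filterByExpr) were fitted over all 4 groups with edgeR 4.0.16 (R 4.3.3), TMM scaling and the quasi-likelihood test. Contrasts gave exercised against resting fish at 3 years and its difference from the effect at 1 year. Adjusted p-values of this fit are Benjamini-Hochberg values over the 18079 genes tested, and genes were called at a threshold of 0.05. Counts of list members used the unadjusted p from edgeR, under the same value of 0.05. DESeq2 1.42.0, limma 3.58.1 on RPKM, other scalings and filters, 3-year libraries alone, an intestine covariate, and leaving out libraries were alternatives. The code was checked on simulated data.

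The genes named singly are those with a mean of at least 5 CPM and a proper symbol: 12 higher and 12 lower with the smallest p, then 6 higher and 6 lower with the largest fold among genes whose groups did not overlap. Up to 4 members a list were named in each direction by p. The comparison, members and lists were chosen with earlier results of these data known. Depth was 33067760 to 47150197 counts per library, and the precision is set by the spread between libraries. Some genes of the lists are not reported singly here, though the counts and medians include them.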

Additional observations from a re-analysis of the deposited data

Results flagged for a closer look

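A value stood apart from the other 4 libraries of its group, by Dixon's criterion, in 22 of the 316 groups of 5 values tested. The criterion was applied to log2 CPM, while the values below are printed as CPM. Chance at 1 in 20 gives about 16. The 316 cover single genes and also the mean levels of gene lists, and all 22 were of single genes. In resting fish, the library apart was replicate 1 for AIF1L (1.85 CPM), NCEH1 (47.2 CPM), HSPA5 (111 CPM), PIK3R4 (35.1 CPM) and cyp2ad2 (1849 CPM). Resting replicate 2 stood apart for POLR1B (6.73 CPM) and cyp2k31 (1.13 CPM), and resting replicate 3, an intestinal library, for PFKFB3 (12.9 CPM) and psma6l (9.22 CPM). Resting replicate 4 did so for gna11a (2.63 CPM), NAMPT (3.40 CPM), phf20l1 (69.1 CPM) and EIF2AK3 (5.58 CPM), and resting replicate 5 for cry3b (58.7 CPM). In exercised fish, replicate 1 stood apart for PSMC6 (16.1 CPM) and replicate 2 for GFM2 (6.56 CPM) and rims2b (6.08 CPM). Exercised replicate 3 did so for GNL2 (25.1 CPM) and NFE2L1 (7.65 CPM), and replicate 4 for CLDN11 (0.281 CPM), DDIT3 (42.5 CPM) and FKBP5 (30.7 CPM).

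The exercise effect differed between 3 years and 1 year, by edgeR's test of the difference itself, in 17 genes named here. Of all genes 0.979% passed this test. The 17 were not an independent choice: 10 are among the 36 genes named for their effect at 3 years in the same libraries, and some others were named for this difference. Without the intestinal libraries 2 of the 17 passed. On the log2 scale and as 3 years minus 1 year, the difference was above 0 for phf20l1 (5.71), DNAJB9 (4.27), HSPA5 (3.66), CRELD2 (3.05), EIF2AK3 (2.4), NFIL3 (2.33), dnajc3b (2.29), NAMPT (2.02) and MARS1 (1.74). It was below 0 for rims2b (-3.85), HSD17B3 (-3.62), ME1 (-3.10), ppdpfb (-2.65), cyp27a1.1 (-1.79), PSMD5 (-1.31), thap4 (-1.24) and PSMB5 (-0.775).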

How the results depend on the processing

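The count of 0 called genes rested on the test, the filter and the libraries used. DESeq2 called 269 genes higher and 360 lower, a stricter filter on low counts 12 and 21, limma on the deposited RPKM 2 and 0, and limma on rescaled RPKM, an alternative chosen after seeing the data, 3 and 0. Without the intestinal libraries 2 genes were called higher, MFAP4 (ENSDARG00000090557) and si:dkey-97i18.5, and 0 lower. Leaving out 1 library gave 0 to 4 higher and 0 to 7 lower, with the most calls without exercised replicate 3 (4 and 7), then exercised replicate 4 (1 and 4), exercised replicate 2 (1 and 0) and resting replicate 1 (1 and 0). The other alternatives gave 0. The difference between ages gave 177 genes, 680 in DESeq2, 20 without the intestinal libraries and 95 to 191 without 1 library. Of 684 alternatives for the genes named singly, 0 reversed, and 42 passed the threshold where edgeR did not, 35 of them in DESeq2. Reversals were unlikely in advance, as these genes were chosen in the same libraries for a small p or for groups without overlap. Of 442 alternatives for list medians, 406 moved by less than the spread (SD) between libraries. That limit was wide beside the medians, so the count says little about how stable they are. Without the intestinal libraries, the moves from -0.59 to -0.10 for hepatocyte markers and from 0.20 to -0.03 for glycolysis fell within it. Without 1 library, run for list medians and for the difference after seeing the data, medians were -0.23 to 0.12 for proteasome assembly, -0.083 to 0.15 for fasting regulators and -0.18 to 0.076 for xenobiotic metabolism, with signs turned as well for the citric acid cycle (-0.21 to 0.054). Medians of ribosomal proteins, complexes II to V, translation factors, mitochondrial translation, the proteasome core and chaperones shrank by over 1.5 times without resting replicate 4. Those of glycolysis (0.066 to 0.38) and fatty acid synthesis (0.14 to 0.43) also varied by over that, lowest without exercised replicates 1 and 2 and highest without resting replicates 4 and 1. With library totals alone, which lifted the median of all genes to 0.39, medians were -0.12 and -0.10 for ribosomal proteins of the large and small subunit, 0.80 for ribosome biogenesis, 0.14 for translation factors, 0.24 for mitochondrial translation, 0.15, 0.018 and 0.33 for the proteasome core, regulatory and assembly lists, 0.069 and 0.16 for complex I and complexes II to V, -0.12 for the mitochondrial genome, 0.31 for the citric acid cycle, -0.21 for fatty acid oxidation, 0.63 for fatty acid synthesis, 0.039 for cholesterol, 0.57 for glycolysis, -0.13 for endoplasmic reticulum folding, 0.22 for cytosolic chaperones, 0.041 for amino acids, 0.70 for the clock, 0.43 for fasting regulators, 0.33 for xenobiotic metabolism and 0.94 for myeloid markers. Without the intestinal libraries they were -0.20 for proteasome assembly, -0.92 for the mitochondrial genome, -0.38 for the citric acid cycle, -0.061 for fatty acid synthesis, -0.15 for endoplasmic reticulum folding and 0.25 for fasting regulators. With intestine and pancreas covariates, also added after seeing the data for list medians, they were -0.043 for amino acids, -0.27 for xenobiotic metabolism and 0.092 for the cell cycle. The cause of these shifts was not tested. No paired analysis was possible because the labels name no pair, litter or batch. With only 2 exercised libraries outside the intestinal ones, values without these are imprecise, and low genes such as cd79a and the MFAP4 copies rest on few reads per library.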
